A study of Mus musculus with 6 samples.

Results

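The genes described here mark the Sertoli cell, the somatic cell of the seminiferous tubule that holds and feeds the germ cells, and carry its main hormone signals. The 10 members were taken by name for these roles: the transcription factors Sox9, Wt1, Gata4 and Gata1, the hormone gene Amh, the receptor gene Fshr, the subunit genes Inhba and Inhbb, and the secreted factor genes Clu and Gdnf. All 10 were found among the 26743 genes of the deposited count table, and all 10 had counts in every mouse and were among the 16924 genes with enough counts to be tested. Whole testes of 3 wild type (WT) and 3 Trf2-/- males, all 21 days old, were analysed by RNA-seq of total RNA depleted of ribosomal RNA. TRF2 is a relative of the TATA-binding protein and is encoded by Tbpl1. In this genotype the gene is inactivated in the animal and not in one cell type, so germ cells and Sertoli cells alike carry the inactivated gene. Which testis cells express Tbpl1 was not tested here, and the labels give neither a strain nor a treatment. At this age the most advanced germ cells are round spermatids.

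Sertoli cells are specified in the fetal gonad by SOX9, and WT1 and GATA4 are needed for the gonad to form and for Sertoli cells to keep their identity. Follicle-stimulating hormone (FSH) from the pituitary acts on them through its receptor FSHR and raises cyclic AMP. In return they secrete inhibin B, a dimer of the inhibin alpha and beta B subunits, which lowers FSH. Anti-Müllerian hormone (AMH) is abundant in immature Sertoli cells and declines as they mature around puberty.

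The reads counted on genes numbered between 21582123 and 29859347 in WT and between 15187062 and 24530489 in Trf2-/- mice, with the fewest in Trf2-/- mouse 3, so that 1 count was worth between 0.0349 and 0.0632 CPM (counts scaled to the library size, adjusted with TMM factors). Tbpl1 itself was at 308.0, 283.1 and 293.6 CPM in WT mice 1 to 3 and at 62.9, 64.3 and 55.8 CPM in Trf2-/- mice 1 to 3, lower in each Trf2-/- mouse than in any WT mouse. The source of the reads that remained in Trf2-/- mice was not tested. A gene was called higher or lower when its adjusted p was under 0.05 in edgeR's quasi-likelihood test with Benjamini-Hochberg adjustment over the 16924 tested genes. Log2 fold changes are of Trf2-/- against WT and are given ± SE where no interval stands beside them. The labels give no batch.

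Of the 10 Sertoli cell genes, Amh, Fshr and Clu rose in Trf2-/- testis, none fell, and the other 7 were not called. Amh rose by the largest factor of the 3, 1.79-fold, against 1.34-fold for Fshr and 1.16-fold for Clu. Across all tested genes 11.2% were called higher and 20.2% lower. At an unadjusted p under 0.05, 8 members were higher and 0 lower, against 19.2% and 24.1% of all tested genes. No member was called at 2-fold or more, a limit that 0.609% of all tested genes passed upwards. The fitted log2 fold change was above 0 for all 10 members, ranging from 0.14 to 1.03 with a median of 0.25, while it was above 0 for 54.9% of all tested genes, whose median was 0.04 and whose quartiles were -0.21 and 0.21. In 9 members, all but Gdnf, every Trf2-/- mouse lay above every WT mouse, which held for 22.3% of all tested genes. The members and all gene lists below were chosen with earlier results of these data known. Their counts beside those of all tested genes are therefore descriptions and not independent support. In bulk testis, more Sertoli cells and more RNA per Sertoli cell cannot be told apart, and the same holds for fewer cells and less RNA of any other type.

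**Figure D1:**
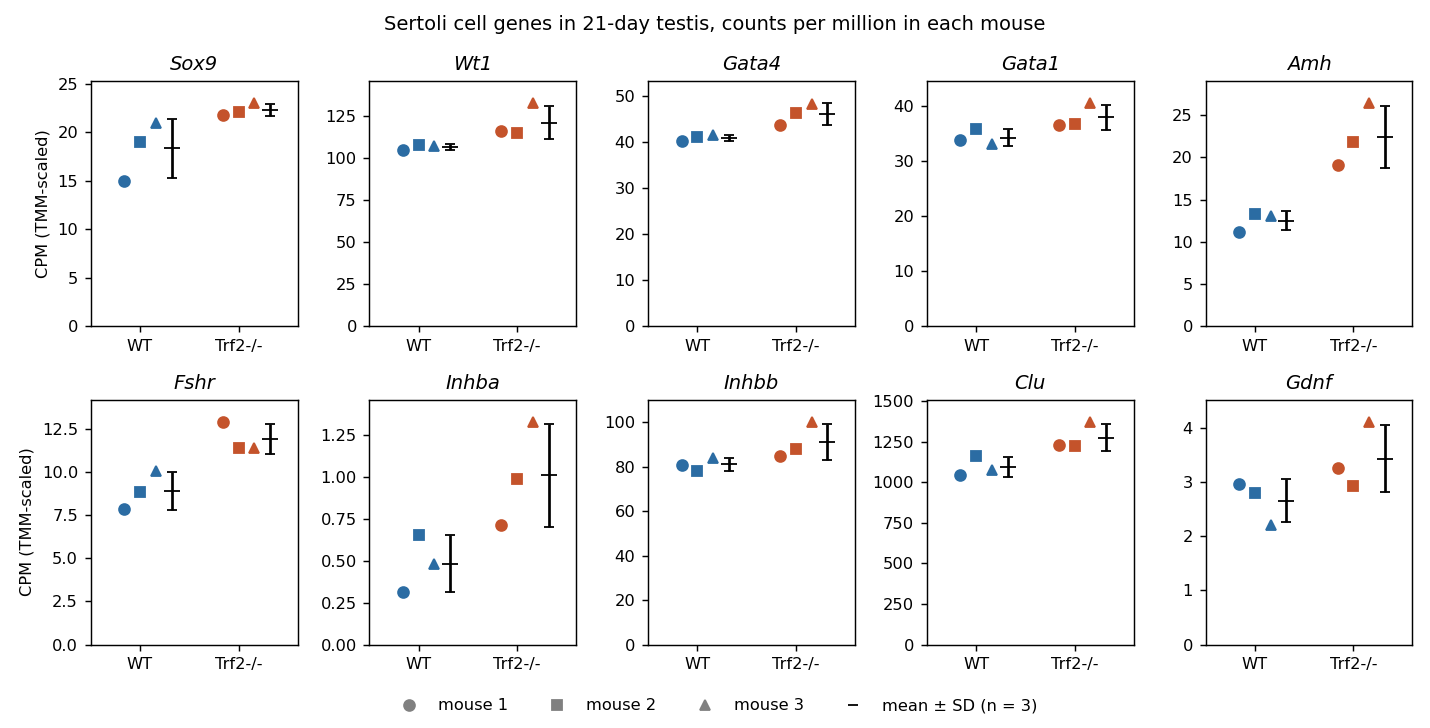
CPM (TMM-scaled, linear axes from 0) of the 10 genes in each of 3 WT (blue) and 3 Trf2-/- (orange) mice, with symbols for mice 1 to 3 and black bars for the mean ± SD. The Trf2-/- mice lie above the WT mice in 9 panels, by the widest margin relative to the spread for Amh, and the groups overlap for Gdnf.

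The transcription factors showed small differences that did not pass the test. Sox9 (ENSMUSG00000000567, NCBIM37 chr11:112643538-112649074, plus strand), the gene that drives Sertoli cell fate, was at 15, 19 and 21.0 CPM in WT mice 1 to 3 and at 21.8, 22.1 and 23.0 CPM in Trf2-/- mice 1 to 3. The WT mice spread far more widely than the Trf2-/- mice, and the highest WT mouse lay just under the lowest Trf2-/- mouse. Its log2 fold change was 0.28 (95% interval 0.02 to 0.55, adjusted p = 0.0927, edgeR's quasi-likelihood test). Without WT mouse 3 it was 0.39 (adjusted p = 0.0459), and without WT mouse 1 it was 0.15 (adjusted p = 0.245), so the call depended on which WT mice were included.

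Wt1 (ENSMUSG00000016458, chr2:104966686-105013773, plus strand) encodes a zinc finger factor that maintains the Sertoli cell lineage. It was at 104.5, 107.8 and 106.9 CPM in WT and at 115.8, 114.5 and 132.3 CPM in Trf2-/- mice, where mouse 3 stood above the other 2. The log2 fold change was 0.18 ± 0.06 (SE) with an adjusted p of 0.0502 in edgeR's quasi-likelihood test, at the edge of the threshold, and was 0.12 without mouse 3 (adjusted p = 0.0550). Gata4 (ENSMUSG00000021944, chr14:63817759-63890529, minus strand), a zinc finger factor that binds GATA sites in many Sertoli cell promoters, was at 40.0, 41.0 and 41.4 CPM in WT and at 43.6, 46.1 and 48.2 CPM in Trf2-/- mice. The WT mice lay close together and all below the Trf2-/- mice, and the log2 fold change was 0.17 ± 0.06 (adjusted p = 0.0530, edgeR). With DESeq2's size factors in place of TMM both genes passed, with adjusted p of 0.0429 for Wt1 and 0.0491 for Gata4 in edgeR.

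Gata1 (ENSMUSG00000031162, X chromosome 7536386 to 7555197, minus strand), known for its role in red blood cells, is switched on in Sertoli cells during the first wave of spermatogenesis. It was at 33.9, 36 and 33.1 CPM in WT and at 36.5, 36.9 and 40.6 CPM in Trf2-/- mice. The gap between the highest WT and the lowest Trf2-/- mouse was narrow, and the log2 fold change of 0.14 had a 95% interval from -0.01 to 0.29 (adjusted p = 0.127, edgeR). The upper bounds of the intervals of the 4 factors were at most 0.55 on the log2 scale.

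Other regulators of the Sertoli cell were drawn from a list of 15 further transcription factors and nuclear regulators, all tested, of which 5 were called higher and 1 lower, with a median log2 fold change of 0.20. Among those that rose were Zfpm2, the GATA4 cofactor, at 0.43 ± 0.08 (SE), Tcf21 at 0.41 ± 0.12, Rxra at 0.25 ± 0.06 and the Sox9 relative Sox8 at 0.21 ± 0.07. Emx2, a homeobox gene needed for the early gonad, fell by 1.94 ± 0.30 on the log2 scale, from 2.18 ± 0.197 to 0.535 ± 0.271 CPM (SD, n = 3, adjusted p = 0.00190, edgeR). The genes of the list with the highest mean CPM were not called: Nr2c2 had a log2 fold change of -0.03 and Nr5a1, the steroidogenic factor that acts with SOX9 and GATA4 on Amh, had 0.13 (adjusted p = 0.180, edgeR). The reads came from whole testis, and which cell type carried the RNA of these listed genes was not tested.

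Amh (ENSMUSG00000035262, chr10:80267993-80270393, plus strand) encodes the hormone that removes the female ducts in the male fetus. It was at 11.2, 13.3 and 13.0 CPM in WT mice 1 to 3, from 321, 346 and 272 counts, and at 19.2, 21.8 and 26.4 CPM in Trf2-/- mice, from 483, 508 and 418 counts. Each Trf2-/- mouse held more Amh counts than any WT mouse, although the Trf2-/- libraries included the smallest. The log2 fold change was 0.84 ± 0.13 (SE), or 1.79-fold with a 95% interval of 1.47 to 2.19 (adjusted p = 0.00164, edgeR's quasi-likelihood test). Only 1.73% of tested genes had a higher log2 fold change. Amh was called under all 14 alternatives of scaling, test, filter, block and mice, and its fold change was under the 2-fold limit. Leaving out each mouse in turn gave log2 fold changes from 0.72 to 0.93, the lowest without Trf2-/- mouse 3.

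The nearest gene to Amh is Sf3a2, a splicing factor gene on the same strand that ends 324 bases before it. Its log2 fold change was -0.13 ± 0.07 (adjusted p = 0.170, edgeR), the opposite sign to that of Amh. No member overlapped another gene in the GENCODE vM1 annotation of NCBIM37. AI314831, 19 bases from Wt1 on the opposite strand, had 0.28 ± 0.105 (adjusted p = 0.0707, edgeR), the same sign as Wt1. BC006965, 248 bases from Sox9 on the opposite strand, had -0.45 ± 0.32, the opposite sign to Sox9. Whether reads of neighbours entered the counts of members was not tested.

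AMH signals through AMHR2, which pairs with type I receptors of the BMP family and acts through SMAD1, SMAD5 and SMAD9. Of 8 genes of this pathway 2 were called higher and 2 lower, against 11.2% and 20.2% of all tested genes, and the median log2 fold change was 0.08. Smad5 rose by 0.30 ± 0.05 on the log2 scale and the type I receptor gene Bmpr1a by 0.22 ± 0.06. Smad1 fell by 0.43 ± 0.08 and Smad9 by 0.60 ± 0.20. The receptor gene Amhr2 was at 306.7 ± 17.0 CPM in WT and 313.2 ± 16.3 CPM in Trf2-/- testis (SD, n = 3), a log2 fold change of 0.03 ± 0.06 (adjusted p = 0.709, edgeR).

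Fshr (ENSMUSG00000032937, chr17:89384292-89600015, minus strand) encodes the receptor for FSH, which in the testis is found on Sertoli cells. It was at 7.88, 8.81 and 10.1 CPM in WT and at 12.9, 11.4 and 11.4 CPM in Trf2-/- mice 1 to 3, so that the groups did not overlap and mouse 1 was the highest. The log2 fold change was 0.42 ± 0.12 (SE), or 1.34-fold with a 95% interval of 1.11 to 1.62 (adjusted p = 0.0259, edgeR's quasi-likelihood test). The call was lost when 1 mouse was left out in 4 of the 6 cases: without WT mouse 1 (log2 fold change 0.34, adjusted p = 0.0970), WT mouse 2 (0.41, 0.0875), Trf2-/- mouse 1 (0.35, 0.0925) or Trf2-/- mouse 2 (0.44, 0.0525).

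The 250 bases before the start of Fshr are shown because its promoter is known to be switched on in Sertoli cells through an E-box (CACGTG), which is in capitals in the sequence. The sequence was taken from RefSeq (GRCm38.p6, chr17:89200676-89200925, minus strand) and reads 5′ to 3′.
Fshr: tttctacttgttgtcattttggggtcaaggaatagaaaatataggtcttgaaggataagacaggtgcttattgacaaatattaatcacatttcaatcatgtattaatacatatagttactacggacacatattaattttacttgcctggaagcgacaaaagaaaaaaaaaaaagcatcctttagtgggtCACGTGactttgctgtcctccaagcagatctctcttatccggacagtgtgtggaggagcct
The E-box begins at position -61, counting the base before the start as -1. CACGTG, which reads alike on both strands, was found in 6.02% of the 32851 promoter windows of the same length. The match is a description of the letters and not of a bound site. The GC content of the window is 36.8%, lower than in all but 6.74% of windows.

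Downstream of the receptor, FSH acts through the stimulatory G protein, adenylyl cyclase and protein kinase A. Of 15 genes of this pathway 4 were called higher and 1 lower, against 11.2% and 20.2% of all tested genes, and the median log2 fold change was 0.16. Gnas, the G protein alpha subunit gene, rose from 209.0 ± 6.69 to 242.9 ± 12.6 CPM (SD, n = 3, log2 fold change 0.22, adjusted p = 0.0128, edgeR). Arrb2, whose product uncouples the receptor, rose by 0.41 ± 0.09 (SE) on the log2 scale, the cyclase gene Adcy9 by 0.22 ± 0.06 and the kinase subunit gene Prkacb by 0.18 ± 0.06. The other catalytic subunit gene, Prkaca, fell by 0.24 ± 0.07 (adjusted p = 0.0286, edgeR). Prkar1a, with the highest mean CPM of the list, had a log2 fold change of -0.01 ± 0.06.

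Inhba and Inhbb encode the beta subunits that form activins A and B, and with the alpha subunit inhibins A and B. Inhba (ENSMUSG00000041324, chr13:16103684-16119044, plus strand) had only 9, 17 and 10 counts in WT mice 1 to 3 and 18, 23 and 21 counts in Trf2-/- mice 1 to 3. These are 0.314, 0.651 and 0.480 CPM against 0.714, 0.986 and 1.33 CPM, with the highest WT mouse just under the lowest Trf2-/- mouse. The fitted difference was the largest among the members, a log2 fold change of 1.03, and also the least precise, with a 95% interval of 0.22 to 1.84 (adjusted p = 0.0555, edgeR). Without Trf2-/- mouse 1 it was 1.23 (adjusted p = 0.0456), and without WT mouse 1 it was 0.78 (adjusted p = 0.188).

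Inhbb (ENSMUSG00000037035, chr1:121312042-121318825, minus strand), the subunit gene of inhibin B, was far more abundant per length, with a WT mean of 19.1 against 0.243 CPM per kb for Inhba. It was at 80.7, 78.3 and 84.2 CPM in WT and 84.9, 88.2 and 100.3 CPM in Trf2-/- mice. The highest WT and the lowest Trf2-/- mouse nearly met, and the log2 fold change was 0.17 ± 0.07 (SE, adjusted p = 0.0938, edgeR), or 0.10 without Trf2-/- mouse 3 (adjusted p = 0.162). Within a mouse, the ratio of Inhba to Inhbb counts was 0.00388, 0.00831 and 0.00570 in WT and 0.00842, 0.0112 and 0.0132 in Trf2-/- mice. The groups did not overlap, but the gap between WT mouse 2 and Trf2-/- mouse 1 was narrow. The mean log2 ratio was higher by 0.92 in Trf2-/- mice (two-sided exact permutation test, p = 0.1, the smallest that 3 against 3 mice can give, and 0.15 after Benjamini-Hochberg adjustment over 3 ratios).

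The windows before the starts of these genes are shown side by side because the subunit genes differ so widely in level. They are the 250 bases upstream in RefSeq (GRCm38.p6, chr13:16011601-16011850, plus strand, for Inhba and chr1:119422249-119422498, minus strand, for Inhbb), 5′ to 3′, with TATAAA in capitals in Inhba and a GATA word in capitals in Inhbb.
Inhba: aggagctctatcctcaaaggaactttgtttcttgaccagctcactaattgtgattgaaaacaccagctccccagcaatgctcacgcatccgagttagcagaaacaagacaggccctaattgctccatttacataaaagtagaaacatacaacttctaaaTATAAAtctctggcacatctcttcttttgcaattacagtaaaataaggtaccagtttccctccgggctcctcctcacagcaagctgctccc
Inhbb: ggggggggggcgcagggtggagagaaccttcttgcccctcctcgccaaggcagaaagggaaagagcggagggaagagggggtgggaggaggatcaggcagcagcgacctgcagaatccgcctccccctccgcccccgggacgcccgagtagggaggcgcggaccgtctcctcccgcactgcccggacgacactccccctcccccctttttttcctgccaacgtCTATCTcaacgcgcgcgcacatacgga
The GC content is 43.2% for Inhba and 68.0% for Inhbb, and 52.4% is the median of all windows. TATAAA, searched on both strands, begins at position -91 in Inhba, and 12.4% of all windows hold it. CTATCT, the reverse strand of AGATAG, begins at position -27 in Inhbb. The letters GATA with an A or T before them and an A or G after them were found on either strand in 26.5% of windows. Whether these letters bear on the difference in level was not tested.

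The inhibin alpha subunit gene Inha, which decides whether beta subunits form inhibins, was at 163.2 ± 9.63 CPM in WT and 178.0 ± 13.7 CPM in Trf2-/- testis (SD, n = 3, log2 fold change 0.12, adjusted p = 0.187, edgeR). It belongs to a list of 12 tested genes of the inhibin and activin pathway, with a median log2 fold change of 0.20. Of the list 3 were called higher and 0 lower (11.2% and 20.2% of all tested genes). Those called were Tgfbr3, the coreceptor that lets inhibin block activin receptors (0.42 ± 0.06, adjusted p = 0.00139), Smad4 (0.23 ± 0.07, adjusted p = 0.0485) and Smad2 (0.18 ± 0.06, adjusted p = 0.0415), all in edgeR. The activin antagonist gene Fst had -0.09 ± 0.14 and the receptor gene Acvr2a -0.10 ± 0.06, neither called.

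Clu (ENSMUSG00000022037, chr14:66587320-66600385, plus strand) encodes clusterin, an extracellular chaperone that is among the main secreted glycoproteins of the Sertoli cell. It was at 1044, 1165 and 1074 CPM in WT and at 1228, 1226 and 1373 CPM in Trf2-/- mice and the groups did not overlap. The log2 fold change was 0.22 ± 0.06 (SE), or 1.16-fold with a 95% interval of 1.06 to 1.28 (adjusted p = 0.0260, edgeR's quasi-likelihood test). The call was lost without WT mouse 1 (0.19, adjusted p = 0.103), WT mouse 3 (0.21, 0.0831) or Trf2-/- mouse 1 (0.23, 0.0503). Of 7 genes for clusterin-binding receptors and other chaperones, 1 was called higher and 0 lower, and the median log2 fold change was 0.10. Across all tested genes 11.2% were called higher and 20.2% lower. The receptor gene Vldlr rose by 0.91 ± 0.22 on the log2 scale from 1.15 ± 0.174 CPM, and Lrp2 had 0.55 ± 0.20 without passing (adjusted p = 0.0628, edgeR). The chaperone genes Hspa5 and Calr, with the highest mean CPM of the list, had 0.02 ± 0.04 and 0.08 ± 0.05.

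Gdnf (ENSMUSG00000022144, chr15:7761011-7787575, plus strand) encodes the factor with which Sertoli cells sustain spermatogonial stem cells. It was at 2.96, 2.80 and 2.21 CPM in WT and at 3.25, 2.92 and 4.11 CPM in Trf2-/- mice, from 46 to 85 counts a mouse. Trf2-/- mouse 2 lay within the WT range, and the log2 fold change of 0.34 had a 95% interval of -0.09 to 0.77 (adjusted p = 0.197, edgeR). It was 0.21 without Trf2-/- mouse 3, the highest, with an adjusted p of 0.423 in edgeR. Its receptor genes on germ cells, Gfra1 and Ret, were not called, at 0.08 ± 0.13 and 0.27 ± 0.13.

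The other ligands and receptors of the GDNF family included genes that fell. Of 7 tested genes of the list 0 were called higher and 3 lower, against 11.2% and 20.2% of all tested genes, with a median log2 fold change of 0.02. Gfra4, the persephin receptor gene, fell from 19.3 ± 0.913 to 10.2 ± 0.646 CPM (SD, n = 3, log2 fold change -0.92, adjusted p = 0.000390, edgeR). The artemin gene Artn fell by 1.38 ± 0.23 (SE) on the log2 scale and Ncam1, an alternative GDNF receptor gene, by 0.71 ± 0.18.

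**Figure D2:**
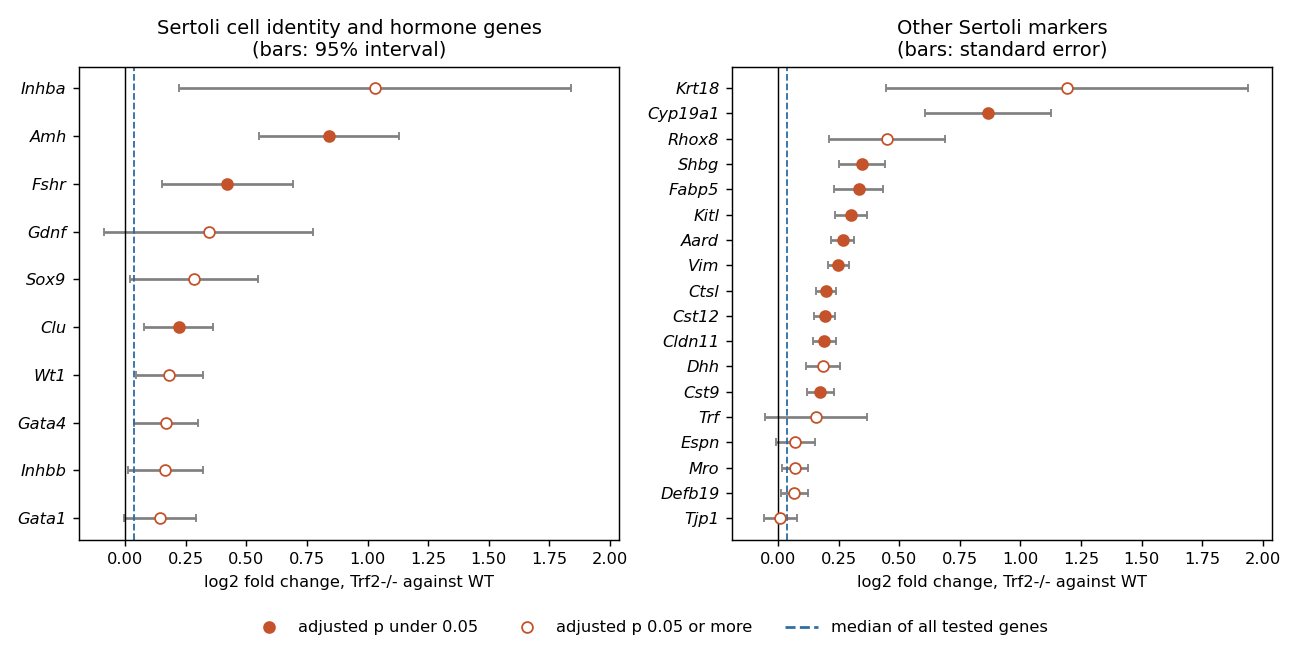
Log2 fold changes, Trf2-/- against WT, of the 10 genes with 95% intervals (left) and of 18 of the other Sertoli cell markers with standard errors (right). Filled points have an adjusted p under 0.05 and the dashed line is the median of all tested genes, 0.04. All points lie above 0, and Amh is the filled point farthest to the right among the 10 genes.

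The levels of the members were compared per length, as CPM per kb of the gene length that the table gives. In WT testis Clu was at 423.7 ± 24.3 CPM per kb (SD, n = 3), followed by Wt1 at 31.6 ± 0.514, Inhbb at 19.1 ± 0.694, Gata1 at 14.1 ± 0.604 and Gata4 at 10.4 ± 0.180. Then came Amh at 7.50 ± 0.684, Sox9 at 4.44 ± 0.738, Fshr at 3.78 ± 0.468, Gdnf at 0.757 ± 0.113 and Inhba at 0.243 ± 0.0852. The mean of Clu was 1742 times that of Inhba. Of the neighbours in this order the ranges over mice overlapped only between Sox9 and Fshr. In Trf2-/- testis the order was the same except that Amh, at 13.5 ± 2.21 CPM per kb, moved above Gata4, at 11.8 ± 0.598. There the ranges of Amh overlapped with those of Gata1 above it and Gata4 below it, and the ranges of Sox9 and Fshr again overlapped.

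**Figure D3:**
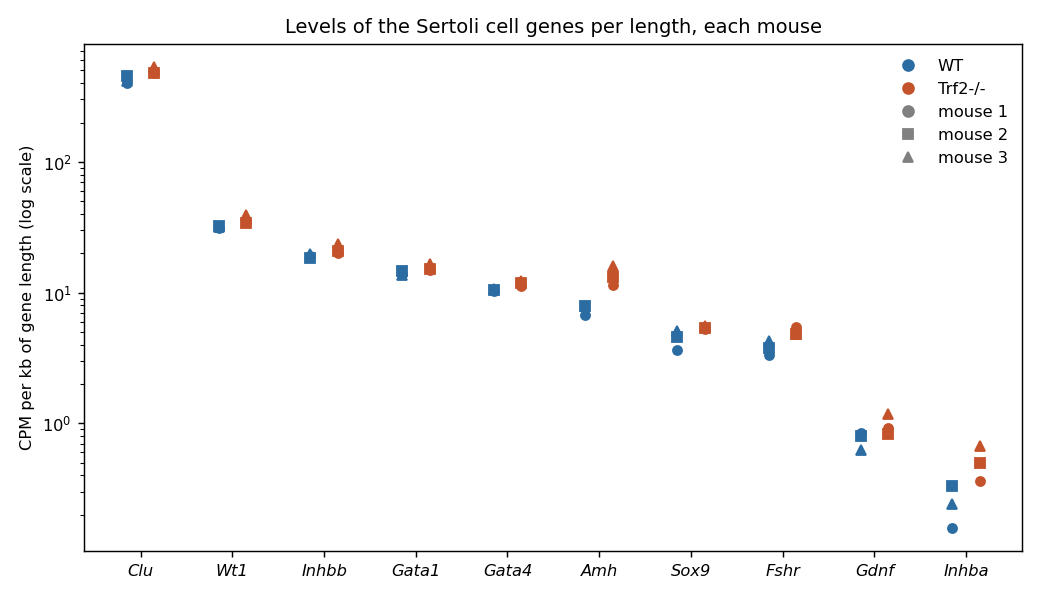
Level of each gene in CPM per kb of gene length (log axis) in 3 WT (blue) and 3 Trf2-/- (orange) mice, genes ordered by the WT mean. Clu stands far above the rest at 423.7 CPM per kb in WT, and Amh is level with its left-hand neighbours Gata1 and Gata4 in Trf2-/- but not in WT mice.

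To set the members against other genes of the same cell, 19 further Sertoli markers were tested, and 11 were called higher and 0 lower, with all 19 fitted above 0 and a median log2 fold change of 0.20. These markers too were chosen with earlier results of these data known, so the counts are a description. Those called include Vim (0.25 ± 0.04), Aard (0.27 ± 0.05), the protease gene Ctsl (0.20 ± 0.04) and the tight junction gene Cldn11 (0.19 ± 0.05). The other 8 were not called, and nearest to 0 were Tjp1 (0.01 ± 0.07), Defb19 (0.07 ± 0.05), Mro (0.07 ± 0.05) and Espn (0.07 ± 0.08). The summed level of the 19 markers was between 2345 and 2359 CPM in WT and between 2646 and 2696 CPM in Trf2-/- mice, without overlap. The shift of these markers was near the median of the members, 0.25. When each mouse was scaled to the median level of these markers, which left their own median at 0.13, the median of the members was 0.18, all kept their sign, and Amh alone was called. Wt1 was then at 0.11, Gata4 at 0.10, Gata1 at 0.07, Inhbb at 0.10 and Clu at 0.15. When each mouse was scaled so that these markers were centred, an alternative chosen after seeing the data that lowered the median of all genes by 0.22, the median of the members was 0.03, and again only Amh was called. Its log2 fold change was then 0.62 ± 0.12 (adjusted p = 0.00305, edgeR). Under this centring Wt1 (-0.04), Gata4 (-0.05), Gata1 (-0.08), Inhbb (-0.06) and Clu (-0.003) changed sign and Fshr was at 0.20 (adjusted p = 0.206, edgeR). Scaled by library size alone, 9 members were called higher, and the share of all calls that were higher was 61.3%, against 35.6% with TMM and 3.12% when centred on the Sertoli markers.

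Ratios between members within a mouse do not depend on the scaling. The ratio of Amh to Sox9 counts was 0.745, 0.698 and 0.621 in WT and 0.880, 0.986 and 1.15 in Trf2-/- mice, without overlap. On the log2 scale the means were -0.54 ± 0.13 and -0.002 ± 0.193 (SD, n = 3), a difference of 0.54 (two-sided exact permutation test, p = 0.1, the smallest possible, and 0.15 adjusted over 3 ratios). The ratio of Clu to Sox9 was 69.5, 61.3 and 51.1 in WT and 56.4, 55.5 and 59.7 in Trf2-/- mice, with all Trf2-/- values inside the WT range (log2 difference -0.07, exact permutation p = 0.6).

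**Figure D4:**
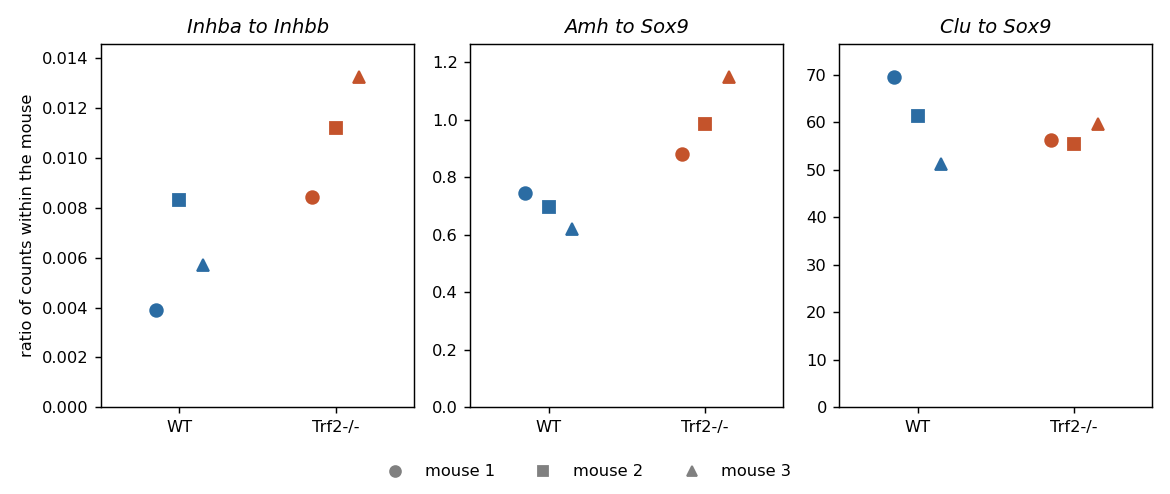
Ratio of read counts of pairs of genes within each mouse (linear axes from 0), with symbols for mice 1 to 3. The Trf2-/- mice (orange) lie above the WT mice (blue) for Inhba to Inhbb and for Amh to Sox9, and inside the WT range for Clu to Sox9.

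Markers of other cell types of the testis were measured in the same libraries. Of 8 round spermatid genes 0 were called higher and 7 lower, and their summed level was between 90.0 and 95.1 CPM in WT and between 41.3 and 60.0 CPM in Trf2-/- mice. Acr, of the acrosome, fell from 56.3 ± 2.94 to 31.0 ± 6.74 CPM and Tekt2, of the flagellum, from 17.4 ± 1.12 to 12.6 ± 2.27 CPM (SD, n = 3). Tssk1 fell by 1.41 ± 0.14 (SE) on the log2 scale, and Acrv1 was at 1.29 ± 0.242 CPM in WT and 0.0561 ± 0.0659 CPM in Trf2-/- testis, at most 3 counts a mouse in the latter. Of 8 spermatocyte genes 3 were called higher, Sycp1 (0.29 ± 0.06), Sycp3 (0.24 ± 0.04) and Hormad1 (0.17 ± 0.05). Called lower were 4, among them Ldhc (-0.70 ± 0.13) and Hspa2 (-0.17 ± 0.06). The sum of the 8 was between 6030 and 6458 CPM in WT and between 4813 and 5445 CPM in Trf2-/- mice. Most of it was Ldhc, with means of 2279 CPM in WT and 1407 CPM in Trf2-/- testis, and Hspa2, with 1690 and 1500 CPM. The sum thus follows these genes and is not a measure of spermatocyte number. Of 7 tested spermatogonia genes 2 were called higher and 0 lower, Dazl (0.22 ± 0.04) and Kit (0.19 ± 0.06), while Uchl1 had 0.08 ± 0.12. The sum ran from 893.7 to 925.4 CPM in WT and from 998.4 to 1109 CPM in Trf2-/- mice. Dazl alone made up most of this sum, with means of 725.1 CPM in WT and 843.9 CPM in Trf2-/- testis. Nanos2, a marker of the stem cells, was at 0.153 CPM or less on average in both genotypes and was not tested. The part of these cell types in the values of the members was not tested.

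Among the somatic lists, 3 of 7 macrophage genes were called higher and 0 lower, with a median log2 fold change of 0.59, above that of the Sertoli genes. They were Csf1r (0.59 ± 0.15), C1qa (0.79 ± 0.20) and Lyz2 (1.36 ± 0.36), while Mrc1 had 0.16 ± 0.16. The macrophage sum was 189.9, 162.2 and 168.2 CPM in WT and 349.4, 215.3 and 183.6 CPM in Trf2-/- mice 1 to 3, so that mouse 3, the highest for most Sertoli genes, overlapped with WT. Of 9 Leydig cell genes 2 were called higher and 0 lower: Hsd17b3 (0.61 ± 0.16) and Hsd3b1 (0.32 ± 0.08), which has near-identical copies that can share its reads. Cyp11a1, the first enzyme of steroid synthesis, had -0.05 ± 0.24, and the Leydig sums overlapped, at 248.5 to 418.9 CPM in WT and 246.1 to 400.3 CPM in Trf2-/- mice. Of 7 peritubular genes 1 was called higher, Des (0.48 ± 0.12), and 1 lower, Myl9 (-0.31 ± 0.05), with Acta2 (0.16 ± 0.10) and Myh11 (0.25 ± 0.10) not called and sums of 403.1 to 496.6 CPM in WT and 460.9 to 514.7 CPM in Trf2-/- mice. Of 6 endothelial genes 1 was called higher and 0 lower, Cdh5 (0.45 ± 0.11), with Kdr (0.48 ± 0.22) and Vwf (0.31 ± 0.20) not called and sums of 44.3 to 46.8 CPM and 51.6 to 66.1 CPM. Across all tested genes 11.2% were called higher and 20.2% lower, so 1 of 7 peritubular and 1 of 6 endothelial genes called higher is near the share of all genes. The part of the somatic cells in the result was not tested either.

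**Figure D5:**
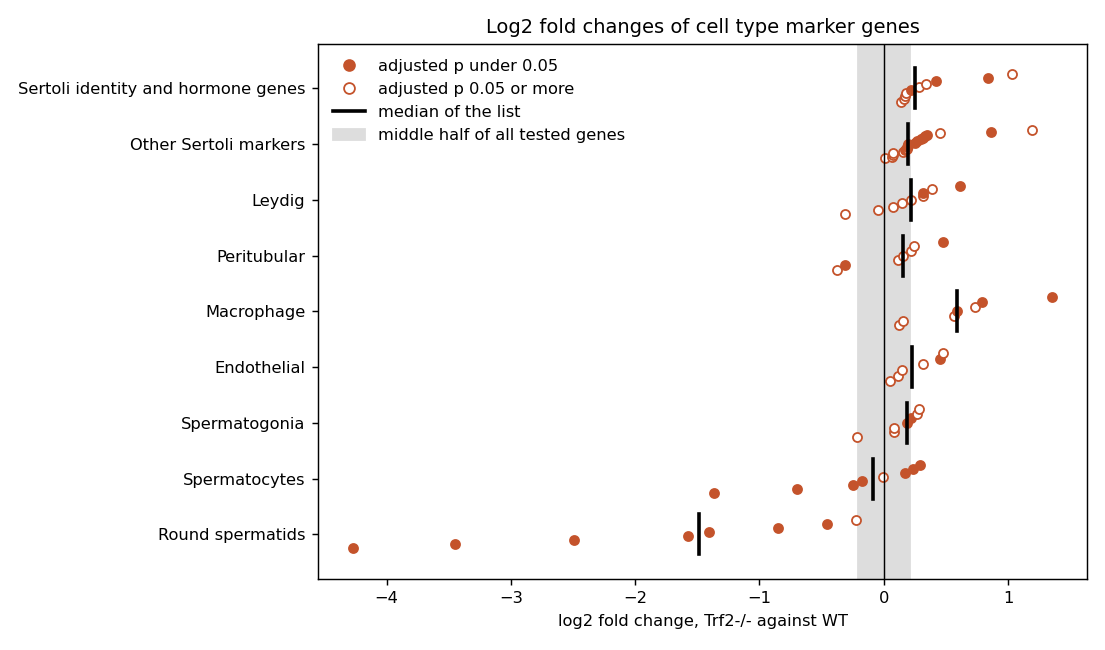
Log2 fold changes, Trf2-/- against WT, of the genes in each marker list, with filled points for an adjusted p under 0.05, a black bar at the median of the list and grey shading from the lower quartile, -0.21, to the upper quartile, 0.21, of all tested genes. The round spermatid genes lie to the left of 0 and both Sertoli lists to the right, and the leftmost points, Acrv1 and Catsper1, rest on at most 3 counts in each Trf2-/- mouse.

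Across the 6 mice the levels of the members ran largely in parallel. Trf2-/- mouse 3, the smallest library, held the highest level of 9 members and Trf2-/- mouse 1 that of Fshr, while mouse 3 was the highest in 28.9% and mouse 1 in 17.7% of all tested genes. WT mouse 1 was the lowest in 7 members and in 20.3% of all tested genes. Without Trf2-/- mouse 3 the number of members called higher was again 3, and without WT mouse 1 only Amh was called. Over the 6 mice, which share their genotype difference and their library sizes, the correlation of each member's log2 CPM with the mean of the others, each standardized, ran from 0.72 for Gdnf and Fshr to 0.98 for Amh. The genes most like the mean profile of the members were Tipin (r = 0.999), SNORA55 (0.998), 2700050L05Rik (0.998), the retinoblastoma gene Rb1 (0.997) and Fam102a (0.997), and 1403 genes had an r over 0.9.

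The members lie on 9 chromosomes, with Gata4 and Clu both on chromosome 14. Of the biological process terms in the deposited table, male gonad development was held by 6 members (Sox9, Wt1, Gata4, Gata1, Fshr and Inhba) and by 0.414% of all tested genes, and cellular response to FSH stimulus by 3 (Gata4, Gata1 and Inhba), none of which was called, and by 0.0355% of tested genes.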

How the data were processed

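RNA-seq was performed on total RNA from testes of 3 WT and 3 Trf2-/- mice, described as independent biological replicates. The authors depleted ribosomal RNA, made strand-specific libraries and sequenced single-end reads. Per the submitters' processing notes CASAVA 1.8.2, TopHat2 2.0.10, Bowtie2 2.1.0, HTSeq 0.5.4p3 and DESeq2 1.0.19 were used with mm9 (NCBIM37). The strand setting and the annotation release are not given in the sources used here. The authors deposited raw read counts per gene, and 12 columns of normalized values in the same table were not used.

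Counts were filtered with filterByExpr, which kept 16924 genes, scaled with TMM and tested with edgeR 4.0.16 (R 4.3.3; glmQLFit, glmQLFTest, Benjamini-Hochberg over all tested genes, genotype as the only term). The standard error was derived from the log2 fold change and the F statistic. Adding 0.5 CPM before log2 was done for profiles only. The p-values of edgeR set the difference between the genotypes against the spread between these mice, estimated with information shared across genes.

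The alternatives were DESeq2's size factors, library size alone, scaling to or centring on other Sertoli markers (the latter added after seeing the data), the Wald test of DESeq2 1.42.0, no filter beyond 1 count, at least 10 counts in every mouse, a replicate block, a 2-fold limit and each mouse left out. The members and all lists were chosen with earlier results of these data known. The genes named are the members, Tbpl1, and from each list the 2 with the smallest adjusted p, the 2 with the highest mean CPM and small groups of called genes, plus the 5 genes most correlated with the members. Fst, Acvr2a, Gfra1, Ret, Cldn11, Tjp1, Defb19, Mro, Espn, Nanos2, Catsper1, Sf3a2, AI314831 and BC006965 were named after their values were seen. Of 15 listed inhibin and activin genes 14 and of 20 listed other Sertoli markers 19 were found in the table. A result for 1 listed gene is not reported here.

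On counts simulated for 16924 genes, of 50 genes each set to log2 fold changes of -1, -0.5, 0.5 and 1, edgeR called 41, 25, 24 and 38, and 9 of 16724 unchanged genes. Far fewer genes were changed there than were called in the mice, which makes the adjustment stricter. The shares called in the simulation are therefore not the power of the test on the mice. Mice of a genotype differed by more than sampling noise in all pairs (chi-square per degree of freedom 3.32 or more). No pair thus looked like repeat sequencing of the same library. Each was counted as 1 replicate on the authors' description, which this check cannot decide. Promoter windows came from RefSeq (GRCm38.p6), which matched 5 of the 10 members. The windows of Gata1, which held none of the searched words, and of Gdnf, which held several, are not shown.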

Additional observations from a re-analysis of the deposited data

How the results depend on the processing

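Amh was called higher in every alternative run except the 2-fold limit, with log2 fold changes from 0.62 to 0.93, and no member was called lower in any. The number of members called higher, 3, became 5 with DESeq2's size factors, 9 with library size alone, 1 when scaled to the other Sertoli markers and 1 when centred on them, and 0 with the 2-fold limit. It was 3 with the Wald test of DESeq2 and 4 with no filter or with at least 10 counts in every mouse, a filter that left Inhba untested. Leaving out 1 mouse gave 1 to 3 members, with 1 without WT mouse 1. Centred on the Sertoli markers, the log2 fold changes of Wt1 (-0.042), Gata4 (-0.053), Gata1 (-0.081), Inhbb (-0.057) and Clu (-0.003) changed sign, by the construction of that scaling. The 11 other Sertoli markers called higher became 2 when scaled to their own level, 0 when centred, and 5, 6 and 7 without WT mouse 1, WT mouse 2 and Trf2-/- mouse 1.

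All genes called higher, 1889, became 4267 with library size alone, 624 scaled to and 213 centred on the Sertoli markers, and 103 with the 2-fold limit, and ranged from 780 (without WT mouse 2) to 1903 when 1 mouse was left out, with 787 without WT mouse 1, 1168 without WT mouse 3 and 1174 without Trf2-/- mouse 1. All genes called lower, 3423, became 6604 when centred and 727 with the 2-fold limit, and ranged from 2626 to 3332 when 1 mouse was left out. Beyond the scalings, the cause of these shifts was not tested.

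The labels number the mice 1 to 3 in both genotypes. Deviations of same-numbered mice from their genotype means correlated at -0.08, -0.13 and -0.09, and those of differently numbered mice at 0.03 to 0.07. The deviations of 3 mice from their own mean depend on each other. These values therefore cannot decide whether the numbers pair the mice. With the replicate block, 2 members (Amh and Clu) and 1486 genes were called higher and 3094 lower, and Fshr had an adjusted p of 0.0565 in edgeR. Inhba had only 9 to 23 counts in each mouse, and the part of depth in its wide interval was not tested.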
